A study of Mus musculus with 8 samples.

Results

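The immunoglobulin heavy variable genes, written Ighv in the mouse, encode the front part of the antibody heavy chain, and each B cell joins only 1 of them to a diversity and a joining segment. All features whose symbol starts with Ighv were taken, which gave 185 of the 32285 genes in the tables, with 183 different symbols. In each cell the Ighv gene with most unique molecular identifiers (UMIs, each standing for 1 captured RNA molecule) was taken as the gene that the cell used, where it had at least 2 UMIs and no tie. Usage was then counted in B cells (Ms4a1 and Cd79a), in cells with Vpreb1, Vpreb3 or Igll1, and in plasma cells (at least 5 UMIs of Jchain), in 8 libraries of brain leukocytes. Of 50141 cells, 11735 in these 3 classes had an assigned Ighv gene.

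The study asked how intestinal inflammation bears on amyloid pathology and on the immune cells of the brain. Wild-type (WT) C57BL/6J mice and App NL-G-F mice, knock-in animals with a humanized Aβ sequence and the Swedish, Arctic and Iberian mutations, were left on water or received 1 of 3 treatments. Acute colitis was induced with 2% dextran sulfate sodium (DSS) in the drinking water for 1 week, chronic colitis with 3 cycles of 2% DSS and water of 5 days each, and food allergy by weekly intraperitoneal ovalbumin with alum followed by daily oral ovalbumin. The labels give an age of 16 weeks and the methods a younger age, males and females were used according to the methods, and a CD45 antibody was injected into the blood before perfusion of every animal. CD45.2+ cells were sorted from brain parenchyma after hashtag antibody labelling, and 1 droplet library with reads from the 5' end of transcripts was made for each of the 8 combinations of genotype and treatment. The study lists fewer mice for App chronic colitis than for the other App groups, and the labels do not tie a hashtag to a mouse. With 1 library per combination, no difference between treatments or genotypes could be tested, and tests below compare cell classes within the 8 libraries.

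The Ighv genes lie in one long row on the side of the locus away from the constant genes. During B cell development in bone marrow a heavy chain gene is assembled first and is tested at the surface together with the surrogate light chain, whose parts are encoded by Vpreb1 and Igll1. Light chain rearrangement, selection in the periphery and, after antigen contact, expansion and class switching then change which heavy chains are seen. Plasma cells, which secrete antibody, carry far more immunoglobulin RNA than B cells, and the members of one expanded clone share their Ighv gene, light chain and usually their constant gene. B-1 cells, a lineage of body cavities and of natural IgM, are known for a few recurring receptors, among them Ighv11-2 and Ighv12-3 receptors that bind phosphatidylcholine.

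All 185 members were found by identifier in the GENCODE vM21 annotation of GRCm38 (mm10), the build that the authors used, and all lay on chromosome 12, between positions 113572927 (Ighv5-1) and 116010093 (distal end). The annotation listed 113 of them as V genes and 70 as V pseudogenes, and 2 on the opposite strand shared a symbol with another feature (Ighv5-8 and Ighv1-13). Each V gene has a short leader exon and a V exon, and the V exon holds the part that differs between genes. The last 300 bases of the V exon are printed for 5 genes on which the results turn, read from the GENCODE transcripts on the minus strand in the direction of transcription. Capitals mark the codon of the conserved second cysteine and the germline bases after it, at the start of the region that varies most between antibodies.
Ighv1-26: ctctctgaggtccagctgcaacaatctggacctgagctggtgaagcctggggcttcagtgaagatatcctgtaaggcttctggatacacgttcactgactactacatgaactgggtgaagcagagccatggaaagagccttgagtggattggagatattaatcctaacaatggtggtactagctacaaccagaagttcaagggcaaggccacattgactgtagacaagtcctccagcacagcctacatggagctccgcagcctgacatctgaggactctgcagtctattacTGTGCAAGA
Ighv1-82: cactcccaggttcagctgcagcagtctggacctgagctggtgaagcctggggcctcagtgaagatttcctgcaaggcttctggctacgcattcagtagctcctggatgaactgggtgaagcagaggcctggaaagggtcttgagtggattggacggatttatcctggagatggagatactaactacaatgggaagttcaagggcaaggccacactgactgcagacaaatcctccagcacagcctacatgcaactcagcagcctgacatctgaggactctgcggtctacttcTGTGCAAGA
Ighv5-2: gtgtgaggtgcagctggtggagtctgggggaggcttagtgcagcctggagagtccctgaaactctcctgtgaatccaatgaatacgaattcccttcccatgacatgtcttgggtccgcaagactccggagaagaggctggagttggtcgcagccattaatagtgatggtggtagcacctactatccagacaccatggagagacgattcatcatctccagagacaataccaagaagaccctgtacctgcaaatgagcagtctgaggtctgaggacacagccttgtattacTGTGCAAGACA
Ighv11-2: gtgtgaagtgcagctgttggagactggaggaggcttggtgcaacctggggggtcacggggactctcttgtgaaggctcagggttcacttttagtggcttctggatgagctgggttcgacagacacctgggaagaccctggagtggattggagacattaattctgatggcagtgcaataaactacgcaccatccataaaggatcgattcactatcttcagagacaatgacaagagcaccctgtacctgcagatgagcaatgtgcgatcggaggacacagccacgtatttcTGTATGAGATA
Ighv12-3: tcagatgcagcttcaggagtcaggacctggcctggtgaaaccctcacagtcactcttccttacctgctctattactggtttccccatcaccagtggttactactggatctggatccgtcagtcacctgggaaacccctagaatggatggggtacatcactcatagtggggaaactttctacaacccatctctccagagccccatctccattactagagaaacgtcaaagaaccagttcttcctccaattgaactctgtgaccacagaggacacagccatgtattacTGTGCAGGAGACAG
These stretches span chr12:114788372-114788671 for Ighv1-26, chr12:115952538-115952837 for Ighv1-82, chr12:113578504-113578803 for Ighv5-2, chr12:114048241-114048540 for Ighv11-2 and chr12:114366521-114366820 for Ighv12-3. Ighv1-26 and Ighv1-82, the 2 genes most used by plasma cells, belong to one family and shared 85.3% of their aligned V exon bases. Ighv11-2 and Ighv12-3 shared 61.9%, although both encode receptors for the same lipid. Among the 113 V genes, 46 (40.7%) ended in tgtgcaaga, the ending of Ighv1-26 and Ighv1-82, and 43 different endings were found in 110 genes with such a codon in their last 20 bases. Ighv11-2 and Ighv12-3 had other endings, tgtatgagata and tgtgcaggagacag.

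Close copies limited the counting. Ighv11-1 is printed next with capitals at the 4 bases by which it differed from the Ighv11-2 stretch above.
Ighv11-1: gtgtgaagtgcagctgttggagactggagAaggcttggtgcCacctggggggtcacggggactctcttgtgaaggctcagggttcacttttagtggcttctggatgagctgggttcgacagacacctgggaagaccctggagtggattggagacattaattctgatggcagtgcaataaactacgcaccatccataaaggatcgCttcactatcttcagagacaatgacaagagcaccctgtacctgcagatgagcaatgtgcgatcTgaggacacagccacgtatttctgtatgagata
This stretch lies at chr12:113981879-113982178. Over the whole V exon the 2 genes were 98.7% identical, and 41 cells were assigned to Ighv11-2 and 3 to Ighv11-1. The V exons of Ighv1-62-2 and Ighv1-71 were identical (21 and 5 assigned cells), and those of Ighv1-72 and Ighv1-62-3 were 99% identical. Values of these pairs are therefore uncertain, since reads that fit both copies could be dropped or split in the authors' counting.

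The deposited tables held between 25621465 and 54619221 UMIs in cells per library, and 4877 to 7200 cells per library passed the filters (WT control 6994, WT acute colitis 4877, WT chronic colitis 5633, WT food allergy 5489, App control 6999, App acute colitis 7200, App chronic colitis 6096 and App food allergy 6853 cells). Ighv UMIs in cells ranged from 220879 to 675869, and plasma cells held 92.33 to 98.03% of them in each library. Barcodes recurred between libraries for 3010 of the 50141 cells (6.00%). Free Ighv RNA was present: in barcodes with fewer than 100 UMIs, 0.331 to 1.002% of UMIs were from Ighv genes, and the Ighv gene with most such UMIs was also the leading Ighv gene by UMIs of the plasma cells in 5 of the 8 libraries. Cells that should lack these genes gave the background of the assignment. An Ighv gene was assigned in 119 of 11010 cells with Cd3e outside the 3 classes, taken as T cells (1.08%, 95% exact binomial interval 0.896 to 1.29%; median 3095 UMIs per cell) and in 82 of 6149 cells with at least 10 UMIs of S100a8, taken as neutrophils (1.33%, 1.06 to 1.65%; median 7522 UMIs).

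The class defined by Vpreb1, Vpreb3 or Igll1 did not carry the marker pattern of early precursors. Vpreb3 was found in 97.1% of its 10641 cells, whereas Vpreb1 was found in 10.4%, Igll1 in 9.03%, the recombinase gene Rag1 in 15.3% and the terminal transferase Dntt in 3.81%. Ms4a1, which encodes CD20 of maturing B cells, was found in 55.4%, and 5980 of all 8329 cells with Ms4a1 and Cd79a had Vpreb3. The class is therefore called Vpreb+ cells here. The 2138 B cells, which had Ms4a1 and Cd79a and none of the 3 Vpreb class genes, more often had the mature B cell markers Fcer2a (31.3% against 12.1%) and Ighd (36.3% against 15.3%). The 1327 plasma cells had Xbp1 in 97.5%, Derl3 in 85.7% and Sdc1, the gene of CD138, in 74.9%. Prdm1 was found in 50.1% of them, Ms4a1 in 24.1% and Vpreb3 in 25.7%. Siglech, a marker of plasmacytoid dendritic cells, which also express Jchain, was found in 8 of the plasma cells. Other markers listed for these dendritic cells were Ccr9 (4.52% of plasma cells), Klk1 (0.678%), Cox6a2 (7.54%) and Bst2. Bst2 was found in 79.9% of plasma cells, 24.8% of Vpreb+ cells and 23.5% of B cells. T cell genes and the neutrophil gene S100a8 were seen in all 3 classes: Cd3e in 5.68% of Vpreb+ cells, 6.55% of B cells and 13.9% of plasma cells, and S100a8 in 19.5%, 18.5% and 27.6%. The part of these transcripts in the usage values was not tested.

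An Ighv gene could be assigned in 8676 Vpreb+ cells (81.5%), 1738 B cells (81.3%) and 1321 plasma cells (99.5%), all far above the shares in T cells and neutrophils. The median cell had 7 Ighv UMIs among Vpreb+ cells, 5 among B cells and 1821 among plasma cells, at median depths of 2591.0, 2670.5 and 19456 UMIs of all genes. By library the share of Vpreb+ cells with an assigned gene was 84.2% for WT control, 89.4% for WT acute colitis, 81.8% for WT chronic colitis, 64.8% for WT food allergy, 76.4% for App control, 84.5% for App acute colitis, 83.0% for App chronic colitis and 78.5% for App food allergy. In B cells it was 84.8%, 83.0%, 82.1%, 66.9%, 84.4%, 78.7%, 79.3% and 82.4% in the same order. The WT food allergy library was the lowest in both classes. The mean within-library difference between the classes was 0.139 percentage points (SD 4.95, n = 8 libraries; exact sign-flip permutation test, two-sided, p = 0.969, adjusted over 5 summary tests p = 0.969), with 3 libraries higher and 5 lower. With each cell thinned to 1000 UMIs, 50.6 to 67.5% of Vpreb+ cells and 54.9 to 70.5% of B cells had an assigned gene, and 224 Vpreb+ cells, 56 B cells and 18 plasma cells were too shallow to enter. In the narrower set of 1342 cells with Vpreb1 or Igll1, only 50.4% had an assigned gene at a median depth of 7252.5 UMIs, against 87.9% of the 7931 other cells with Ms4a1 and Cd79a. That difference was -38.4 percentage points (SD 8.35) and negative in 8 of 8 libraries (exact sign-flip permutation test, p = 0.00781, the smallest that 8 libraries can give), and this definition was added after the data had been seen.

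Usage was broad. Of the 185 members, 117 were the leading gene of at least 1 cell and 68 of none. V genes took 99.6% of the assigned cells, and 104 of 113 V genes were used. Among the 70 pseudogenes 13 were assigned, to 48 cells in all. The 9 V genes without a cell were Ighv5-12-4, Ighv7-2, Ighv16-1, Ighv6-4, Ighv6-7, Ighv1-16, Ighv1-24, Ighv8-9 and Ighv8-13, and 3 of these (Ighv16-1, Ighv1-16 and Ighv1-24) had no UMI in any cell. Ighv8-9 and Ighv8-13 are 98.7% identical to each other, as are Ighv1-16 and Ighv1-24 at 97.96%. Vpreb+ cells used 114 genes, B cells 100 and plasma cells 83. These came from 8676, 1738 and 1321 assigned cells, and a count of genes seen grows with the number of cells. The 10 most used genes took 33.8% of Vpreb+ cells, 34.0% of B cells and 48.3% of plasma cells, and 50% of the cells were reached with 19, 18 and 11 genes.

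Ighv1-26, a gene in the middle of the locus, led in Vpreb+ cells with 509 of 8676 cells (5.87%). It was the most used gene there in each of the 8 libraries, at 4.75% for WT control, 5.78% for WT acute colitis, 6.28% for WT chronic colitis, 7.87% for WT food allergy, 5.72% for App control, 5.95% for App acute colitis, 6.77% for App chronic colitis and 5.18% for App food allergy. The 95% exact intervals of the lowest and the highest library overlapped, at 3.70 to 5.99% and 5.38 to 11.1%, and cover counting error only. Next came Ighv3-6 (4.195%), Ighv9-3 (3.86%), Ighv1-64 (3.04%), Ighv1-81 (3.01%), Ighv1-9 (2.92%), Ighv6-3 (2.78%), Ighv8-8 (2.77%), Ighv1-18 (2.73%) and Ighv1-82 (2.60%). These 10 genes come from 5 families. For Ighv3-6 the lowest library stood at 3.403% and the highest at 4.899%.

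In B cells the order was similar. Ighv1-82, near the distal end of the locus, led with 86 of 1738 cells (4.95%), followed by Ighv1-26 (73 cells), Ighv1-69 (3.68%), Ighv3-6 (3.62%), Ighv9-3 and Ighv8-8 (3.57% each), Ighv1-53 (2.76%), Ighv1-9 (2.65%), Ighv1-64 (2.53%) and Ighv1-80 (2.47%). Over the 91 genes with at least 10 assigned cells, Spearman's rho of the cell counts was 0.908 between Vpreb+ cells and B cells and 0.774 and 0.773 between each of these and plasma cells. This is a description across genes of the same libraries, and genes are not independent replicates. One gene in one library stood apart among B cells: Ighv1-69 took 33 of 154 B cells (21.4%, 95% exact interval 15.2 to 28.8%) in App food allergy, against 0.946 to 3.16% in the other 7 libraries. Of the 33 cells, 14 carried hashtag 6 and 16 hashtag 7, and among B and Vpreb+ cells of that library 14 paired Ighv1-69 with Igkv6-32 and Ighm and 7 with Igkv12-98 and Ighm. The plot of shares by class and library shows both the narrow spread of Vpreb+ cells and these single high points.

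**Figure D1:**
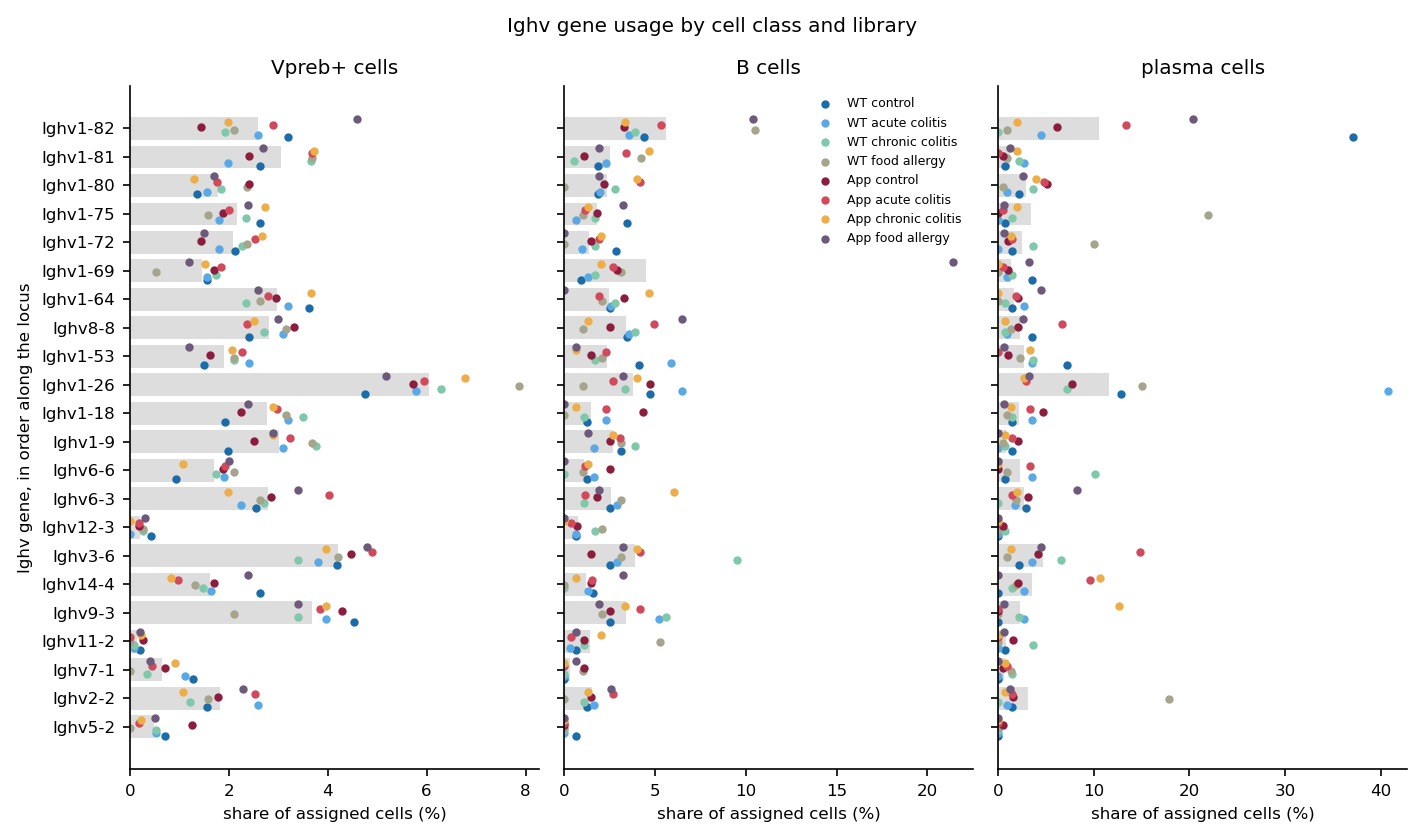
Share of assigned cells (x axis, percent) that used each of 22 Ighv genes (y axis, ordered along the locus) in Vpreb+ cells, B cells and plasma cells; points are the 8 libraries and grey bars their mean, and the x axes differ. Points lie close together in Vpreb+ cells and far apart in plasma cells, where Ighv1-26 reached 40.7% in WT acute colitis and Ighv1-82 reached 37.1% for WT control.

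Vpreb+ cells and B cells were compared gene by gene. The number of cells per gene, library and class was fitted with edgeR's quasi-likelihood test with the library as a block, for the 90 genes with at least 10 cells in both classes together. Of the 90 genes, 2 (2.22%) differed at a Benjamini-Hochberg adjusted p below 0.05, both lower in Vpreb+ cells, and 10 (11.1%) had an unadjusted p below 0.05. DESeq2 called 2 genes as well.

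The first was Ighv11-2, the phosphatidylcholine-binding heavy chain of B-1 cells. It was assigned to 13 of 8676 Vpreb+ cells and 18 of 1738 B cells. In Vpreb+ cells its share was 0.213% for WT control, 0.0862% for WT acute colitis, 0.0873% for WT chronic colitis, 0% for WT food allergy (0 of 381 cells, which allows up to 0.787%), 0.268% for App control, 0% for App acute colitis (0 of 1143, which allows up to 0.262%), 0.228% for App chronic colitis and 0.199% for App food allergy. In B cells the shares were 0.631%, 0.326%, 1.12%, 5.26%, 1.09%, 0.382%, 2.01% and 0.649% in the same order, so that B cells were higher in all 8 libraries. The log2 fold change of Vpreb+ cells against B cells was -2.72 (SE 0.61; edgeR, adjusted p = 0.000914). Without the WT food allergy library, the highest among B cells with 5 of 95, it was -2.34 (adjusted p = 0.0331). With cells thinned to 1000 UMIs and the classes called again on the thinned counts, it was -1.95 and the call was lost (adjusted p = 0.408).

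The second was Ighv1-82, which was used by 226 Vpreb+ cells (2.60%) and 86 B cells (4.95%). Its B cell share was 4.42% for WT control, 3.58% for WT acute colitis, 3.91% for WT chronic colitis, 10.5% for WT food allergy, 3.27% for App control, 5.34% for App acute colitis, 3.36% for App chronic colitis and 10.4% for App food allergy. The Vpreb+ shares were 3.19%, 2.59%, 1.92%, 2.10%, 1.43%, 2.89%, 1.98% and 4.59%, each below the B cell share of the same library. The 2 food allergy libraries had the highest B cell shares. In WT food allergy these were 10 of 95 B cells. Among B and Vpreb+ cells of that library, 9 paired Ighv1-82 with Igkv6-25 and Ighm. In App food allergy 6 paired it with Igkv10-96 and Ighm. The log2 fold change was -0.98 (SE 0.27; edgeR, adjusted p = 0.0147). It was -0.82 (edgeR, adjusted p = 0.0382) when cells with the same library, hashtag call, Ighv gene, light chain V gene and constant gene were counted once. This call was less stable: the adjusted p was 0.0584 without WT food allergy, 0.0555 without App control and 0.0661 without App acute colitis, and 0.119 with TMM scaling. In edgeR it also missed the threshold with the order-of-magnitude cutoff alone (-0.80, adjusted p = 0.569), with thinned cells (-0.61, adjusted p = 0.408) and with summed Ighv UMIs (-1.12, adjusted p = 0.227). With Vpreb1 or Igll1 as the markers, a definition added after the data had been seen, it was -0.66 (edgeR, adjusted p = 0.780). Where the classes could overlap it passed at a smaller size (-0.45; edgeR, adjusted p = 0.0196).

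Just outside the threshold stood 2 genes, named here after their values were seen. Ighv1-69 had a log2 fold change of -1.03 (edgeR, adjusted p = 0.0531) that rested on the App food allergy B cells described above: 5 libraries were lower and 3 higher in Vpreb+ cells. Ighv1-77 was used by 29 Vpreb+ cells, 1 to 6 in every library, by 2 plasma cells and by 0 of 1738 B cells, which allows a B cell share of up to 0.173% (3 cells). Its share of 0.334% in Vpreb+ cells was 1.94-fold this limit over all libraries, with no counting error included (edgeR, adjusted p = 0.0531). With Vpreb1 or Igll1 as the markers, 2 cells (0.296%) used it against 20 other cells with Ms4a1 and Cd79a (0.287%). The log2 fold change was then -0.012 (edgeR, adjusted p = 0.99), with 1 library higher and 6 lower.

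Ighv12-3, the other phosphatidylcholine-binding gene, did not pass. It was found in 17 Vpreb+ cells and 12 B cells, its log2 fold change was -1.70 (SE 0.64; edgeR, adjusted p = 0.147), and the B cell share was higher in 6 libraries and lower in 1. With at least 5 UMIs of the leading gene it passed (log2 fold change -2.25, edgeR, adjusted p = 0.0354), and among cells with Vpreb1 or Igll1 its value had the other sign (log2 fold change 1.35, edgeR, adjusted p = 0.712).

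**Figure D2:**
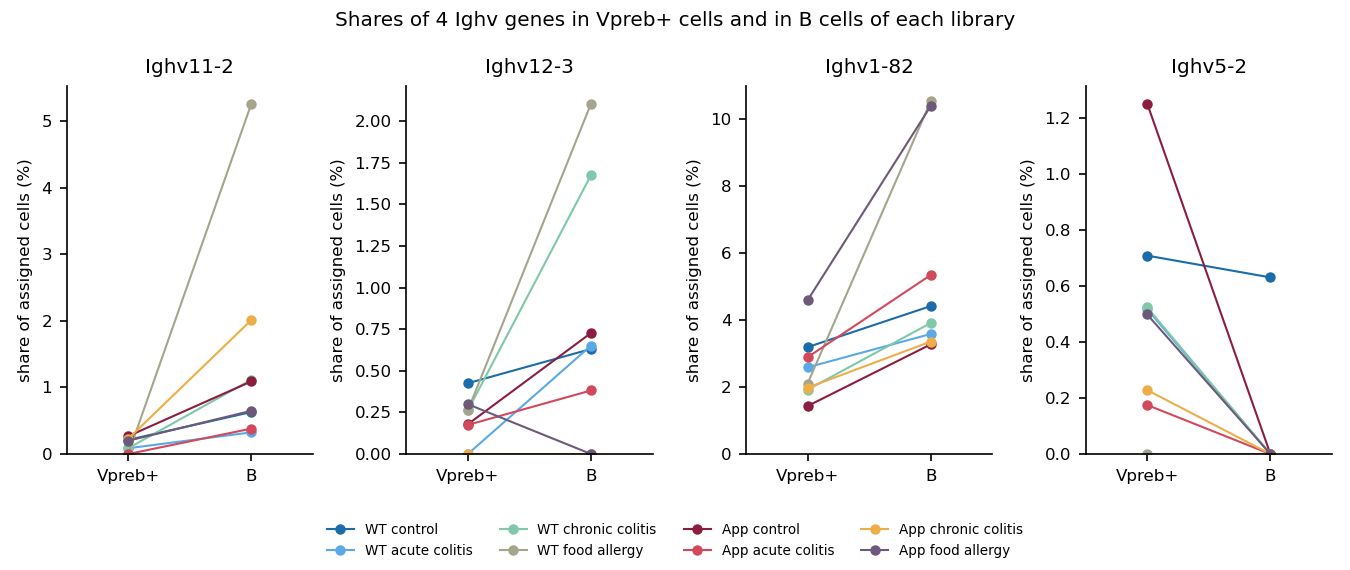
Share of assigned cells (y axis, percent) that used Ighv11-2, Ighv12-3, Ighv1-82 or Ighv5-2 in Vpreb+ cells (left) and B cells (right); each line is 1 of the 8 libraries. The Ighv11-2 and Ighv1-82 lines all rise from Vpreb+ cells to B cells, while Ighv5-2 was at 0 in the B cells of 7 libraries.

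B-1 receptors are also known for their light chains: Ighv11-2 with Igkv14-126 and Ighv12-3 with Igkv4-91. Among B and Vpreb+ cells with both an assigned heavy and light chain V gene, 16 of 29 Ighv11-2 cells (55.2%, 95% exact interval 35.7 to 73.6%) had Igkv14-126 as their leading light chain gene, against 50 of 8526 cells with other Ighv genes (0.586%, 0.436 to 0.772%). The pair was seen in all 8 libraries, in 1 to 4 cells each. All 10 Ighv11-2 plasma cells had Igkv14-126 (5 cells of WT chronic colitis, 3 of App control, 1 of WT control and 1 of App food allergy), against 1 of 1311 other plasma cells, and all 10 had Ighm as their constant gene. Ighv12-3 was found with Igkv4-91 in 7 of 19 B and Vpreb+ cells (36.8%, 16.3 to 61.6%) and in both of its plasma cells, against 56 of 8536 (0.656%) and 11 of 1319 (0.834%) with other Ighv genes.

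**Figure D3:**
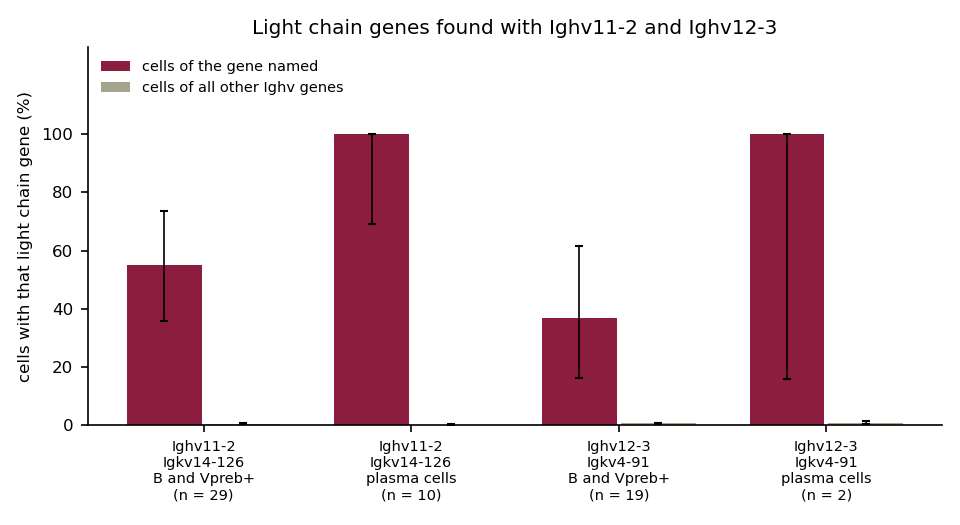
Percent of cells (y axis) whose leading light chain gene was Igkv14-126 or Igkv4-91, for cells of Ighv11-2 or Ighv12-3 (dark bars, n below) and for cells of all other Ighv genes (light bars), in B and Vpreb+ cells and in plasma cells; error bars are 95% exact binomial intervals. The light bars all lie below 1%, and the 2 dark bars of plasma cells stand at 100% of 10 and of 2 cells.

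Cd5, Bhlhe41, Zbtb32 and Cd9 were found in a larger share of the cells with these paired receptors than of the other cells, whereas Spn was found in a similar share. Of the 23 B and Vpreb+ cells with either pair, 6 had Cd5 (26.1%), 5 had Bhlhe41 (21.7%), 8 had Zbtb32 (34.8%), 13 had Cd9 (56.5%) and 2 had Spn (8.70%), and 17 (73.9%) had at least 1 of these 5. Of the 10354 cells with other Ighv genes, 20.6% had at least 1, with Cd5 in 2.21%, Bhlhe41 in 4.16%, Zbtb32 in 0.860%, Cd9 in 9.22% and Spn in 8.91%. Vpreb3 was found in 0 of the 23 cells, which allows up to 13.0% (3 cells), and in 83.4% of the others. This gene is part of the rule that separates Vpreb+ cells from B cells. Its absence is therefore not independent of the Ighv11-2 difference between these classes. Fcer2a, of which B-1 cells carry little, was found in 0 of 23 against 16.5%. Ighd, the other mature B cell marker read here, went the other way, in 8 of 23 (34.8%) against 19.3%. The other cells were mostly Vpreb+ cells, and the markers also differed between the classes. Zbtb32 was found in 4.35% of all B cells and 0.150% of all Vpreb+ cells. The shares were 7.44% and 2.94% for Bhlhe41, 13.75% and 9.95% for Cd9, 3.60% and 2.54% for Cd5, and 8.14% and 10.95% for Spn. The part of the class in the shares of the paired cells was not tested. The paired cells were deeper, with a median of 5456 UMIs against 2607, and were pooled over libraries, so these shares are a description with no test.

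Ighv5-2, the most studied gene of the D-proximal end, is known to be rearranged often in precursors and to be lost later because many of its chains pair poorly with the surrogate light chain. It was used by 46 Vpreb+ cells (0.530%), 2 B cells (0.115%) and 1 plasma cell. By library the Vpreb+ cells numbered 10 for WT control, 6 for WT acute colitis, 6 for WT chronic colitis, 0 for WT food allergy, 14 for App control, 2 for App acute colitis, 3 for App chronic colitis and 5 for App food allergy. Both B cells came from WT control. The share was higher in Vpreb+ cells in 7 libraries and 0 in both classes in the eighth, by 0.409 percentage points on average (SD 0.398, n = 8; exact sign-flip permutation test, two-sided, p = 0.0156, adjusted over 5 tests p = 0.0586). The edgeR log2 fold change of 2.15 (SE 0.91) had an adjusted p of 0.269. It therefore failed the correction in both tests.

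In cells with Vpreb1 or Igll1, the genes of the surrogate light chain itself, Ighv5-2 took 11 of 676 assigned cells (1.63%) against 22 of 6972 other cells with Ms4a1 and Cd79a (0.316%). These 11 cells came from 3 libraries: 7 of 136 in App control (5.15%, 95% exact interval 2.09 to 10.3%), 3 of 124 in App chronic colitis (2.42%) and 1 of 82 in WT chronic colitis. The other 5 libraries had none among 28 to 147 cells, and the log2 fold change of 2.00 (SE 0.76) had an adjusted p of 0.237 (edgeR). In this comparison 0 of 84 genes (0.0%) passed and 10 (11.9%) had an unadjusted p below 0.05. Ighv5-2 and Ighv15-2 (log2 fold change 2.46, edgeR, adjusted p = 0.224) were among these 10, and the latter was used by 7 cells (1.04%) against 12 (0.172%).

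Families were compared next. The Ighv1 family, the largest with 93 members of which 53 were V genes, took 56.2 ± 1.88% of Vpreb+ cells, 56.0 ± 4.51% of B cells and 60.2 ± 13.9% of plasma cells (mean ± SD, n = 8 libraries). Neither difference from B cells passed (0.161 percentage points, p = 0.938, and 4.198 percentage points, p = 0.406, exact sign-flip permutation tests; adjusted over 5 tests p = 0.969 and p = 0.677). In plasma cells the Ighv1 share was 80% for WT control, 76.1% for WT acute colitis, 55.8% for WT chronic colitis, 65.8% for WT food allergy, 56.2% for App control, 48.3% for App acute colitis, 37.7% for App chronic colitis and 61.8% for App food allergy. It lay above the B cell share of the same library in all 4 WT libraries and below it in 3 of 4 App libraries. The 2 ranges overlapped and the difference between genotypes was not tested. A single Ighv1 gene took 37.1% of plasma cells in WT control, 40.7% in WT acute colitis and 21.9% in WT food allergy. The leading gene was also an Ighv1 gene in App control (7.73%) and App food allergy (20.4%). The part of such single genes in the family shares was not tested.

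Of 22 family comparisons, over the 11 families with at least 100 cells and both contrasts, none had an adjusted p below 0.05. The smallest unadjusted values were for Ighv5, which was lower in plasma cells in 7 of 8 libraries (3.95 ± 2.11% against 7.56 ± 1.48%, exact sign-flip permutation test p = 0.0234, adjusted p = 0.344), Ighv4, higher in Vpreb+ cells in 6 of 8 (1.15 ± 0.317% against 0.512 ± 0.575%, permutation p = 0.0391, adjusted p = 0.344), and Ighv8, lower in Vpreb+ cells in 6 of 8 (4.81 ± 0.427% against 5.97 ± 1.37%, permutation p = 0.0469, adjusted p = 0.344). Ighv2, Ighv3, Ighv5, Ighv9, Ighv14 and Ighv6 each took between 3.654 and 7.6% of Vpreb+ cells and of B cells. Ighv16-1, the only member of its family, had no cell.

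Both ends of the locus were used. The 183 members on the minus strand were divided by order into 4 groups of 45 or 46, from the end next to the D and J segments to the distal end. In Vpreb+ cells these took 18.7 ± 1.25%, 28.1 ± 1.46%, 20.61 ± 1.303% and 32.6 ± 1.61% (mean ± SD, n = 8), and in B cells 19.03 ± 1.527%, 26.2 ± 5.55%, 18.0 ± 5.97% and 36.9 ± 7.66%. They held 30, 29, 23 and 31 V genes. In plasma cells the spread between libraries was larger, with 16.6 ± 9.05%, 22.5 ± 9.45%, 24.8 ± 13.3% and 36.0 ± 13.4%.

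**Figure D4:**
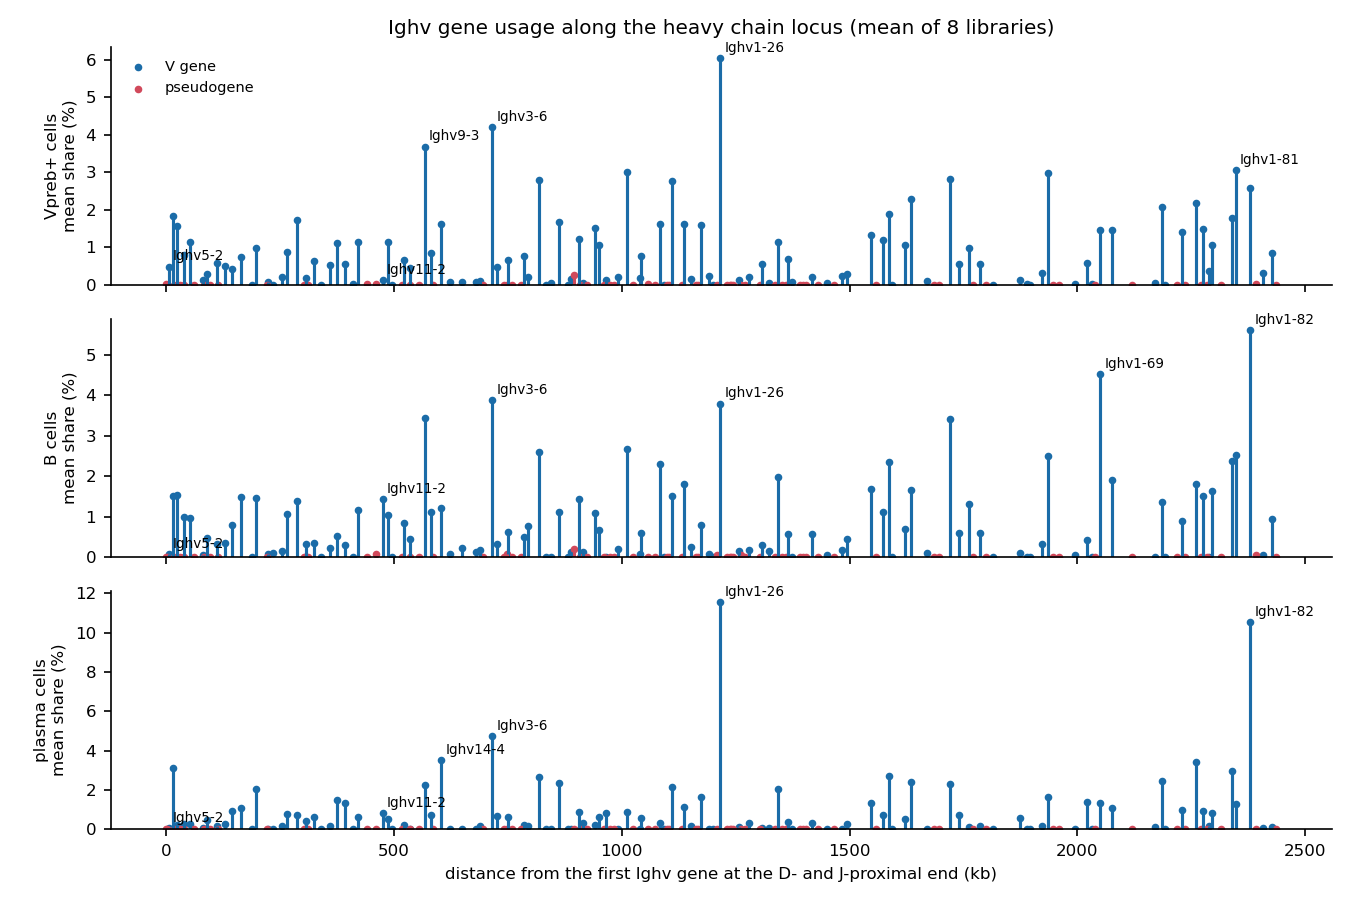
Mean share of assigned cells over the 8 libraries (y axis, percent; scales differ) for each Ighv member on the minus strand against its distance from the first Ighv gene at the end next to the D and J segments (x axis, kb); blue marks are V genes, red ones pseudogenes. Used genes stand between unused neighbours along the whole locus, and Ighv1-26 and Ighv1-82 stand highest in plasma cells.

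Over all libraries fewer genes were seen in plasma cells, which were also the fewest cells, and their leading gene varied between libraries. The leading gene was Ighv1-82 in WT control (52 of 140 cells, 37.1%) and App food allergy (32 of 157, 20.4%), Ighv1-26 in WT acute colitis (46 of 113, 40.7%) and App control (15 of 194, 7.73%), Ighv6-6 in WT chronic colitis (14 of 138, 10.1%), Ighv1-75 in WT food allergy (48 of 219, 21.9%), Ighv3-6 in App acute colitis (31 of 209, 14.8%) and Ighv9-3 in App chronic colitis (19 of 151, 12.6%). Outside its own library Ighv1-75 was at 0 to 1.99% of plasma cells and Ighv9-3 at 0 to 2.66%. Against B cells, 0 of 66 genes (0.0%) passed in edgeR and 0 in DESeq2, and 9 (13.6%) had an unadjusted p below 0.05 in edgeR. These 9 were Ighv1-15, Ighv1-59, Ighv1-7, Ighv5-4, Ighv1-85, Ighv9-3, Ighv1-9, Ighv1-69 and Ighv1-5, and all but Ighv1-7 were lower in plasma cells. Ighv1-9, the one of these with most B cells that was lower in all 8 libraries, was used by 12 plasma cells (0.908%) and 46 B cells (2.65%; log2 fold change -1.69, SE 0.73, edgeR, adjusted p = 0.194).

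The Simpson index, the chance that 2 cells drawn from one class and library use the same gene, put a number on the concentration. In plasma cells it was 16.1% for WT control, 17.3% for WT acute colitis, 3.03% for WT chronic colitis, 11.3% for WT food allergy, 3.46% for App control, 6.42% for App acute colitis, 4.76% for App chronic colitis and 5.99% for App food allergy. In B cells it was between 1.79 and 2.44% in 7 libraries and 6.71% for App food allergy, where Ighv1-69 was frequent, and in Vpreb+ cells between 1.94 and 2.21%. Plasma cells were higher than B cells in 7 of 8 libraries and lower in App food allergy, by 5.83 percentage points on average (SD 6.16, exact sign-flip permutation test, two-sided, p = 0.0234, adjusted over 5 tests p = 0.0586). The difference therefore failed the correction. The difference was 0.601 percentage points (p = 0.102, exact permutation test) when repeated cells were counted once. Repeated cells shared their library, hashtag call (a given hashtag, several or none), Ighv gene, light chain V gene and constant gene. A missing light chain or constant gene was treated as a shared one. The Ighv gene is itself part of this rule, so the value cannot say what the concentration came from.

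**Figure D5:**
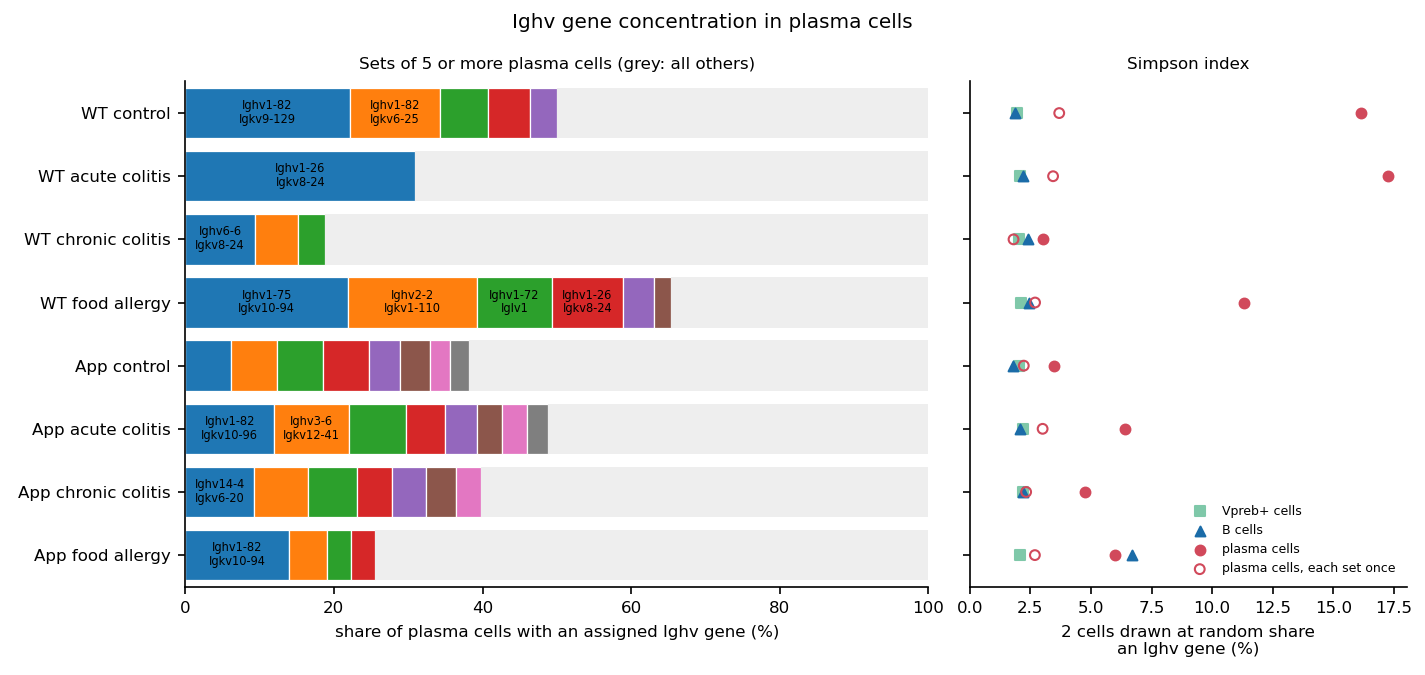
Left, share of plasma cells (x axis, percent) in sets of 5 or more with the same Ighv gene, light chain V gene and constant gene in each of the 8 libraries, with the largest sets named and all other cells in grey; right, Simpson index (x axis, percent) of each class, open circles counting each set once per hashtag call. Sets took 18.8% of plasma cells in WT chronic colitis and 65.3% for WT food allergy, and the open circles of plasma cells fall to between 1.81 and 3.69%.

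Plasma cells of a library were then grouped into sets that shared all 3 genes. Sets of at least 5 cells held 50.0% of plasma cells in WT control, 31.0% for WT acute colitis, 18.8% for WT chronic colitis, 65.3% for WT food allergy, 38.1% for App control, 48.8% for App acute colitis, 39.7% for App chronic colitis and 25.5% for App food allergy. Among B and Vpreb+ cells, such sets held 236 of 10414 cells (2.27%), among them 9 cells of WT food allergy with Ighv1-82, Igkv6-25 and Ighm, the same 3 genes as a set of WT control plasma cells. The 20 sets of at least 10 plasma cells were 17 with Ighm, 1 with Igha and 2 with Ighg2b or Ighg2c. In 16 of them no category held more cells than 1 leading hashtag did, and in 14 of these every cell with a single hashtag carried the same one. The spread of all plasma cells over the hashtags was not set beside these counts. They therefore do not set these sets apart from other plasma cells of their library. A shared set of genes was not shown to be a clone, since joining sequences were not analysed here.

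The largest set was Ighv1-75 with Igkv10-94 and Ighm in WT food allergy, with 48 cells, of which 38 had no hashtag above the cutoff. The second was Ighv2-2 with Igkv1-110 and Igha in the same library, 38 cells with 23 lacking a hashtag. The median depth of these cells was 1088.5 and 2034 UMIs, and the plasma cells of this library had a median of 2208.5 UMIs, against 10504.5 to 25671 in the other 7. In WT food allergy 67 of 219 plasma cells (30.6%) had no hashtag, with a median of 1181 UMIs against 14912.5 for the rest, and at most 2 plasma cells lacked one in any other library. The part of these shallow cells in the WT food allergy shares was not tested. The Simpson difference was 5.40 percentage points without this library.

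Another set in WT food allergy joined Ighv1-72 to the lambda gene Iglv1 and Ighg2b, in 22 cells that all carried hashtag 4 and all held between 1706 and 2865 UMIs. Ighv1-72 with a lambda light chain is the textbook receptor of C57BL/6 mice for the hapten NP, which is not among the treatments. The gene took 10.0% of plasma cells in WT food allergy and 0 to 3.62% in the other libraries.

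In WT control, 2 sets used Ighv1-82 and Ighm: 31 cells with Igkv9-129, of which 22 carried hashtag 4, and 17 cells with Igkv6-25, of which 16 carried hashtag 5. Among the 24 plasma cells of hashtag 4 in that library, 23 used Ighv1-82 (95.8%). Ighv1-82 was also found in sets with Igkv10-96 in App acute colitis (25 cells, 21 with hashtag 5), Igkv10-94 in App food allergy (22 cells, 17 with hashtag 4) and Igkv12-38 in App control (12 cells). The same heavy chain gene thus formed sets of at least 10 cells with 5 different light chain genes in 4 libraries. It was at 0 of 138 plasma cells in WT chronic colitis, which allows a share of up to 2.17%.

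Some sets recurred in several libraries. Ighv1-26 with Igkv8-24 and Ighm was found in 35 plasma cells of WT acute colitis (31.0%), 21 of WT food allergy (9.59%) and 9 of WT control (6.43%), and in 0 of the other 5 libraries, all 4 App libraries among them. No barcode was shared among these 65 cells. The 21 cells of WT food allergy held a median of 1239 UMIs (1048 to 18068) and 6 of them had no hashtag, whereas the 35 of WT acute colitis held a median of 20604 UMIs (4360 to 33848); the part of this difference in depth was not tested. Igkv8-24 was the light chain of 47.4% of Ighv1-26 plasma cells and of 2.96% of other plasma cells, whereas among B and Vpreb+ cells it went with 3.83% and 2.00%. Ighv3-6 with Igkv12-41 and Ighm occurred in 5 libraries (28 cells, 21 of them in App acute colitis), Ighv14-4 with Iglv1 and Ighm in 6 (26 cells, 16 in App acute colitis), Ighv1-80 with Igkv4-55 and Ighm in 5 (16 cells, at most 6 in one) and Ighv1-50 with Igkv4-70 and Ighm in 6 (14 cells, at most 4 in one). With 1 library per combination of genotype and treatment, the absence of a set from the App libraries could not be tested.

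The constant gene was read in the same way. Among B and Vpreb+ cells with an assigned Ighv and constant gene, 97.9% had Ighm, and 8 of 8811 had Igha. In plasma cells Ighm was leading in 79.1% of WT control, 81.4% of WT acute colitis, 63.8% of WT chronic colitis, 63.9% of WT food allergy, 62.9% of App control, 77.5% of App acute colitis, 68.2% of App chronic colitis and 39.5% of App food allergy cells. Igha, the gene of the mucosal isotype, led in 51.0% of App food allergy plasma cells and in 10.6 to 26.8% elsewhere. The switched IgG genes together took 21.2% for App chronic colitis and 20.1% for App control, and 0.719% for WT control. Ighe was the leading constant gene of 1 plasma cell, in WT chronic colitis, and of none in the food allergy libraries. Cells of 1 library are not replicates of its treatment, and none of these differences between libraries could be tested.

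Some cells carried RNA of more than 1 Ighv gene. A second Ighv gene reached at least 2 UMIs in 13.3% of assigned Vpreb+ cells, 8.75% of B cells and 46.0% of plasma cells. Among Vpreb+ cells the share was 24.4% where several hashtags were above their cutoffs and 11.9% where 1 was; the shares were 8.88% and 8.74% among B cells, and 51.1% and 47.3% among plasma cells. In plasma cells the leading gene still held a median of 99.65 to 99.97% of a cell's Ighv UMIs in each library.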

How the data were processed

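The authors aligned 10x Genomics 5' gene expression libraries to mm10 with Cell Ranger multi (6.1.2 in the submitters' processing notes, while the file headers name version 4) and deposited unfiltered UMI counts per gene and barcode, which were used as counts; no value had been normalized. Barcodes above an order-of-magnitude cutoff for 3000 expected cells, and those with at least 500 UMIs that differed from the profile of empty barcodes (ranks 45000 to 90000, 1000 simulated draws, FDR 0.01), were kept with 200 or more detected genes and no more than 5% of UMIs from mitochondrial genes. No doublet caller was run; hashtag status was used instead. Plasma cells were set aside first, then Vpreb+ cells, then B cells, so that the classes did not overlap (5986 cells met both the Vpreb and the B cell rule). Of the cells that met the plasma cell rule, 350 also met the Vpreb rule and 309 the B cell rule. Cells per gene were tested with edgeR 4.0.16 (quasi-likelihood, library as a block, library size set to all assigned cells), with DESeq2 1.42.0 as an alternative, in R 4.3.3; other steps used Python 3.11.15 with numpy 2.4.6, pandas 2.3.3 and scipy 1.17.1. The SE beside an edgeR log2 fold change was derived as its absolute value divided by the square root of the F statistic, and is approximate. Genes needed at least 10 cells and families at least 100 cells to be tested, at an FDR of 0.05. Shares were compared over the 8 libraries with exact sign-flip tests, and intervals are exact Clopper-Pearson intervals that cover counting error only. The fits and tests were checked on simulated data. The genes described by name were the 10 most used of each class, up to 5 with the largest change in each direction among those past the threshold, the leading plasma cell gene of each library and Ighv5-2, Ighv11-2, Ighv12-3, Ighv7-1 and Ighv1-72. The members, lists and tests were chosen with earlier results of these data known. Sequences and positions came from GENCODE vM21 (GRCm38). V(D)J sequence libraries named in the methods were not used here. The labels do not say how many animals each library holds, although the study lists several mice for the control and App groups. The p-values therefore measure the spread between these 8 libraries, which differ in genotype and treatment.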

Additional observations from a re-analysis of the deposited data

How the results depend on the processing

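The usage of B cells rested on 95 to 317 assigned cells per library and that of plasma cells on 113 to 219. The number of genes called between Vpreb+ cells and B cells was 2; it was 4 with at least 5 UMIs of the leading gene, 1 with the order-of-magnitude cutoff alone, 0 with cells thinned to 1000 UMIs and 0 with Vpreb1 or Igll1 as the markers, a definition added after the data had been seen. Leaving out 1 library gave 1 to 4 (4 without WT control, 1 without WT food allergy, App control or App acute colitis). Ighv11-2 was below its B cell level in each of these settings, and passed in all but the thinned and the Vpreb1 or Igll1 setting. For plasma cells against B cells the number of 0 became 2 with 5 UMIs, 6 with overlapping classes, 2 when thinned, 2 with summed UMIs and 3 without the replicate block by library; it was 0 without any 1 library. The Ighv5-2 difference of 0.409 percentage points kept its sign but had an unadjusted exact permutation p above 0.05 with 5 UMIs (0.334), a leading gene of at least 80% of Ighv UMIs (0.264), overlapping classes (0.187), the order-of-magnitude cutoff (0.401), thinning (0.149) and Vpreb1 or Igll1 (0.804). The Ighv1 family difference between Vpreb+ cells and B cells of 0.161 changed sign with 1 UMI (-0.661), overlapping classes (-0.778), 1 hashtag (-0.357) and thinning (-0.300), and ranged from -1.12 to 1.64 without 1 library; it passed in none. The difference in assigned cells of 0.139 became -2.97 with 1 UMI, 5.66 with 5 UMIs and -2.78 with the 80% minimum. It was -6.85 with overlapping classes, -3.63 with the order-of-magnitude cutoff, -0.420 with 1 hashtag, -0.474 when thinned and -38.4 with Vpreb1 or Igll1. Without 1 library it ranged from -0.755 to 1.3. Its unadjusted exact permutation p was below 0.05 with 5 UMIs, overlapping classes and Vpreb1 or Igll1. The Simpson difference of 5.83 was 0.601 with each set counted once per hashtag call, and 4.52 to 6.77 without 1 library. The Ighv5-2 difference was 0.289 to 0.468 without 1 library. The causes were not tested. The other alternatives of these results kept differences in direction and on their side of the threshold, and counts within 1.5 times of the count reported. For shares and the Simpson index this threshold was an unadjusted exact permutation p of 0.05. A count does not say which genes were called. No paired analysis by replicate number was possible because each combination of genotype and treatment has 1 library and the labels carry no replicate number.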

Other observations

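Ighv7-1, whose product is the classical heavy chain of antibodies against phosphorylcholine, was a low-usage gene in these brain leukocytes. It was assigned to 64 Vpreb+ cells (0.738%), 5 B cells (0.288%) and 9 plasma cells (0.681%). In Vpreb+ cells its share ran from 0% in WT food allergy to 1.28% in WT control, and its B cells came from WT food allergy, App control and App food allergy.

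Usage by V genes also differed with how close the nearest other Ighv gene was in sequence. The 22 V genes whose nearest relative was less than 90% identical had a median of 19 assigned cells over the 3 classes. The median was 102.5 for the 22 genes between 90 and 95%, 85 for the 53 genes between 95 and 98% and 21 for the 16 genes with a relative of at least 98%. These medians are a description across genes, and reads lost between near-identical copies cannot be told apart here from genes that are used less.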
